A study of Homo sapiens with 14 samples.

Results

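The proteasome genes of Kasumi-1 cells were followed in RNA-seq counts: 49 genes, named PSMA to PSMG with a number, plus PSME3IP1, POMP and ADRM1. They were picked by symbol alone and are 49 of the 16604 genes present in either of the deposited tables. All 49 were in both tables and all 49 passed the filter on low counts in both experiments. By role, 14 encode the 20S core (7 alpha and 7 beta subunits), 18 the 19S cap (6 ATPases and 12 others), 5 the immunoproteasome, 4 other activators or an inhibitor, and 8 assembly factors. PSMA8 and PSMB11 were not analysed here.

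Kasumi-1 is an established myeloblast line from peripheral blood of a leukemia with an 8;21 chromosome translocation, which every group shares. In the knockdown experiment, cells carried an shRNA against RBPMS (shRBPMS, n = 3) or a scramble shRNA (shCtrl, n = 3), both delivered by lentivirus for 48 h and followed by 48 h of puromycin. In the treatment experiment, cells received RB98#, which the labels give only as a code (n = 2), or DMSO (n = 2). The labels do not give the dose or time of RB98#, the number of shRNA sequences, or whether replicates are separate cultures. The p-values below therefore measure the spread between these libraries, which may be technical.

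The proteasome degrades proteins that carry ubiquitin. Its 20S core is a barrel of stacked rings: outer alpha rings that gate the entrance, and inner beta rings whose subunits PSMB5, PSMB6 and PSMB7 cut the substrate. The 19S cap binds ubiquitin chains, removes them, and unfolds substrates with its ATPase ring. In cells of blood origin and under interferon, PSMB8, PSMB9 and PSMB10 can take the places of PSMB5, PSMB6 and PSMB7 to form the immunoproteasome, and PSME1 and PSME2 form an alternative cap. Proteasome genes are known to be raised together by the transcription factor NFE2L1 when proteasome activity is short.

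Promoter sequences are shown for 7 of the genes that passed a test in the comparisons. These were chosen because they differ in which motifs lie before their start, so that difference is not a result. RefSeq windows (build GRCh38.p14, 250 bases before the transcription start, 5′ to 3′ on the gene's strand) were found for 43 of the 49 genes, and PSMA7, PSMB1, PSMB6, PSMB7, PSMD4 and PSMG3 had none. Capitals mark matches on either strand to 4 motifs: the core of the antioxidant response element TGACNNNGC, the CCAAT box, the interferon-type element (GAAA, any 2 bases, GAAA) and the E-box CACGTG. PSMG1 lies at chr21:39183452-39183701, minus strand, PSMG4 at chr6:3258697-3258946, plus strand, and PSMD5 at chr9:120842923-120843172, minus strand. PSME4 lies at chr2:53970994-53971243, minus strand, PSME3 at chr17:42833147-42833396, plus strand, PSMB10 at chr16:67936851-67937100, minus strand, and PSMB2 at chr1:35641527-35641776, minus strand.
PSMG1: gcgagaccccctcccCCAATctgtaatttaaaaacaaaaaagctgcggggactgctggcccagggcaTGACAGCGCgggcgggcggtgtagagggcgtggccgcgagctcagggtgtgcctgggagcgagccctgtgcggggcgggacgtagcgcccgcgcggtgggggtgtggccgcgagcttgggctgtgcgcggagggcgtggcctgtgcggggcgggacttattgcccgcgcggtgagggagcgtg
PSMG4: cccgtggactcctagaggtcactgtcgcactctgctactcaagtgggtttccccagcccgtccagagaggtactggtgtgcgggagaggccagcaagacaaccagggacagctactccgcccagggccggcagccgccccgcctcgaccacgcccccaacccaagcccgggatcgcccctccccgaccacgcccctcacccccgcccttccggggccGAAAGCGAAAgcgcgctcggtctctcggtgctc
PSMD5: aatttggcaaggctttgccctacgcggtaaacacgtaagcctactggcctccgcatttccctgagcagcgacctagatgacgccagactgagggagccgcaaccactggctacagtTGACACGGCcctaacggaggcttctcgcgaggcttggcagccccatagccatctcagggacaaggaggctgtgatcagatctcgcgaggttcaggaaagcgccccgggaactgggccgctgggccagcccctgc
PSME4: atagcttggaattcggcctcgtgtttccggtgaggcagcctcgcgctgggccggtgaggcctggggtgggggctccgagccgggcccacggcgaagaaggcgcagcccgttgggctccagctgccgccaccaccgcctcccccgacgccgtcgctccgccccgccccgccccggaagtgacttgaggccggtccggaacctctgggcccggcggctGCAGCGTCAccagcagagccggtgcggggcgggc
PSME3: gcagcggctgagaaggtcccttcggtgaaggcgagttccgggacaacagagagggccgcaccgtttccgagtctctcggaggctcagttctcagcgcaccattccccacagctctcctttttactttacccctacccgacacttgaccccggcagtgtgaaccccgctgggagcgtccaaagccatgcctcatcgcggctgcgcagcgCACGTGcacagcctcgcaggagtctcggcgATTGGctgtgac
PSMB10: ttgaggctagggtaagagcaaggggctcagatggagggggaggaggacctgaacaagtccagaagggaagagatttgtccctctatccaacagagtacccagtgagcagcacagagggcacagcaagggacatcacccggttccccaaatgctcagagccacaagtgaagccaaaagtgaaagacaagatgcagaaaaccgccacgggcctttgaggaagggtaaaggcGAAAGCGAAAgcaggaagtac
PSMB2: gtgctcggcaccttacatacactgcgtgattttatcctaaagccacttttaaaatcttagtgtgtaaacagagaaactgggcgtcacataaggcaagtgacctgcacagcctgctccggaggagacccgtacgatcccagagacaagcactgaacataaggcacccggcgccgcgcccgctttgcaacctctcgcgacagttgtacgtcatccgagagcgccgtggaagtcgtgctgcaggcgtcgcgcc

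PSMG1 held the antioxidant core 183 bases and a CCAAT box 235 bases before the start, and PSMG4 held the interferon-type element 33 bases before it. PSMD5 held the antioxidant core at 134 bases and PSME4 at 34 bases. PSME3 held a CCAAT box at 12 bases and an E-box at 42 bases. PSMB10, whose product is an interferon-induced subunit, held the interferon-type element at 21 bases. PSMB2 held none of the 4. PSMD14, which also passed a test but is not shown, held CCAAT matches at 48 and 45 bases. Over all proteasome genes with a window, 14 of 43 held the antioxidant core, against 13.2% of the 27305 genes in the RefSeq table, and 20 held CCAAT, against 37.0%. The interferon-type element was in 5 (PSMA4, PSMB4, PSMB10, PSME2 and PSMG4), against 3.71%, and the E-box in 4 (PSMB3, PSMD9, PSME3 and PSME3IP1), against 7.73%. These are letter matches in these windows, not measured binding sites.

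RBPMS, the target of the shRNA, had 2.53, 3.34 and 3.08 CPM (counts per 1e+06, with library sizes scaled by TMM) in shRBPMS replicates 1, 2 and 3, against 20.4, 7.24 and 7.39 CPM in shCtrl. The groups did not overlap. Its log2 fold change was -1.96 ± 0.45 (SE), with an adjusted p of 0.0846 in edgeR's quasi-likelihood test and 0.0106 once replicate number was blocked. In the treatment experiment RBPMS had 6.62 and 8.06 CPM with RB98# and 7.17 and 6.40 CPM with DMSO.

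Library totals were 24.0 to 34.4 M counts (M, 1e+06) in the knockdown experiment and 13.9 to 15.3 M counts in the treatment experiment. The knockdown labels fall into 2 sets whose meaning is not stated: set 1 holds replicate 1 of each group and set 2 holds replicates 2 and 3. Mitochondrially encoded genes took 13.2% of counts in shRBPMS and 15.2% in shCtrl replicate 1, against 6.20% to 6.95% in the set 2 libraries and 8.17% to 8.39% in the treatment experiment. Replicates of a group differed by more than sampling noise, with a mean chi-square per gene (1 is expected from sampling) of 133 to 215 between sets and of 2.24 to 4.90 between the others. All 6 myeloblast markers (KIT, CD34, MPO, RUNX1T1, POU4F1 and CD33) were present, with a summed 14763 to 16042 CPM in shRBPMS, 13424 to 17531 CPM in shCtrl, 15749 to 16687 CPM with RB98# and 14204 to 14285 CPM with DMSO. None of 5 erythroid markers was among the genes tested in either experiment. The lymphoid sum (4 of 6 markers) was 4.69 to 5.69 CPM in shRBPMS and 12.1 to 12.7 CPM in shCtrl, and 3.75 to 4.33 CPM with RB98# and 3.83 to 4.37 CPM with DMSO (2 of 6). The monocyte sum was 5.90 to 7.34 CPM in shRBPMS and 3.88 to 5.68 CPM in shCtrl (2 of 5), and 33.7 to 36.6 CPM with RB98# and 28.1 to 30.7 CPM with DMSO (3 of 5, without CD14). The platelet list was present by 1 of 4 genes, at 1.10 to 1.93 CPM in shRBPMS, 4.19 to 5.34 CPM in shCtrl, 2.39 to 2.99 CPM with RB98# and 3.55 to 4.89 CPM with DMSO. The part of these other markers in the results was not tested.

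The 49 genes together took 0.430%, 0.614% and 0.604% of all counts in shRBPMS replicates 1, 2 and 3, against 0.418%, 0.619% and 0.614% in shCtrl. With RB98# they took 0.551% and 0.567%, against 0.605% and 0.602% with DMSO. In the knockdown experiment replicate 1 was lowest in both groups, and both RB98# libraries were below both DMSO libraries. The order of RB98# and DMSO depends on the scaling: summed over the 49 genes, TMM-scaled levels were 5712 and 5861 CPM with RB98# and 5859.5 and 5799 CPM with DMSO, and these overlapped.

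By class median, levels per length put the core and cap genes above the immunoproteasome and assembly genes. In the DMSO libraries the median group mean, in CPM per kb of exon (GENCODE 29), was 38.6 for the 14 core genes, 34.7 for the 18 cap genes, 8.06 for the 5 immunoproteasome genes and 13.1 for the 8 assembly factors. PSMA7, an alpha subunit, stood highest at 136 CPM per kb, followed by PSMB3 at 121 and PSMD2, a scaffold of the cap, at 112. PSMB9 stood lowest at 0.437 CPM per kb. Single genes crossed the order of the medians: the cap gene PSMD6 was at 9.43 and the assembly factor POMP at 31.4 CPM per kb. Length here counts all annotated exon bases of a gene, whether or not these cells use them. The cutting subunits PSMB5, PSMB6 and PSMB7 were at 51.4, 35.9 and 76.9 CPM per kb, and the subunits that can replace them, PSMB8, PSMB9 and PSMB10, at 8.06, 0.437 and 7.00 CPM per kb. PSME1, at 50.8 CPM per kb, was the one immunoproteasome gene above the core median.

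With the knockdown, a single proteasome gene passed the test: PSMB2 (chr1:35599544-35641844, minus strand, GRCh38), a beta ring subunit without cutting activity of its own, fell. By edgeR's test on the group alone, 1 of the 49 genes was past an adjusted p of 0.05 (2.04%), against 1.97% of all 16215 genes tested, so the share among proteasome genes was near the background. It was lower, as were 1.34% of all genes, and 0 proteasome genes were higher, against 0.629% of all genes. The median log2 fold change was 0.03 for the core, 0.05 for the cap, -0.19 for the immunoproteasome and 0.02 over all genes tested. The core median includes PSMA1, PSMA2 and PSMA6, whose CPM was far lower in shCtrl than with DMSO, as given below.

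PSMB2 had 135, 137 and 137 CPM in shRBPMS replicates 1, 2 and 3, against 236, 216 and 211 CPM in shCtrl. The means were 136 ± 1.08 CPM in shRBPMS and 221 ± 12.9 CPM in shCtrl (SD, n = 3 each). All 3 shRBPMS libraries were below all 3 shCtrl libraries, in both label sets. The log2 fold change was -0.70 ± 0.11 (SE, n = 3 each) with an adjusted p of 0.0346 in edgeR's quasi-likelihood test and 0.000782 with the replicate block. Within label set 1 the log2 ratio was -0.80, and within set 2 it was -0.64. With set 2 libraries summed to 1 per group and the set as a covariate, the adjusted p was 0.00324. Leaving out 1 library at a time moved the log2 fold change little (-0.74 to -0.66), but the call was lost without shRBPMS replicate 1 (adjusted p = 0.0771), 2 (0.205) or 3 (0.178) and without shCtrl replicate 2 (0.135) or 3 (0.136). In the authors' deposited table the PSMB2 log2 fold change was -0.70, with an adjusted p of 0.000507.

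PSME3 encodes the nuclear activator that opens the core without ubiquitin. It had 165, 179 and 185 CPM in shRBPMS, against 267, 260.2 and 251 CPM in shCtrl. The groups did not overlap. The log2 fold change was -0.56 ± 0.11, with an adjusted p of 0.0586 in edgeR's test on the group alone, past the threshold with the replicate block (0.00193) and in DESeq2 (0.000638). Its log2 ratio was -0.69 in label set 1 and -0.49 in set 2. The authors' deposited table gave -0.54 with an adjusted p of 0.0244. PSME3IP1, a binding partner of PSME3, had 97.2, 74.7 and 72.2 CPM in shRBPMS and 92.0, 75.2 and 76.7 CPM in shCtrl.

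The remaining 2 genes of the activator and inhibitor class had other patterns. PSME4, a nuclear activator used on histones, had 174, 151 and 147 CPM in shRBPMS, against 260.0, 164 and 163 CPM in shCtrl. Its lower mean rested mostly on the high shCtrl replicate 1, with a log2 ratio of -0.58 in label set 1 and -0.14 in set 2, and it did not pass (adjusted p = 0.535, edgeR). PSMF1, an inhibitor of the core, had 126, 131 and 132 CPM in shRBPMS and 115, 122 and 118 CPM in shCtrl. The PSMF1 groups did not overlap, but its log2 fold change of 0.13 ± 0.10 did not pass (adjusted p = 0.618, edgeR).

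Non-overlap of the groups was seen in 5 of the 49 genes, against 25.9% of all genes. PSMB2, PSMD1 and PSME3 were lower in all shRBPMS libraries, and PSMD8 and PSMF1 were higher.

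With the replicate number as a block, 8 of the 49 genes were called (16.3%), against 28.1% of all genes tested. Of the 8, 1 was higher (13.3% of all genes were) and 7 were lower (14.8% of all genes were). PSMB4, another structural beta subunit, had 166, 219.7 and 236 CPM in shRBPMS and 126, 183 and 190.2 CPM in shCtrl. Each PSMB4 value was higher in shRBPMS than in shCtrl of the same number, while the groups overlapped. Its blocked log2 fold change was 0.32 with an adjusted p of 0.0087. The 7 lower genes were PSMB2, PSME3, PSME1 (-0.28, adjusted p = 0.0137), PSMD1 (-0.24, 0.0279), PSMC4 (-0.21, 0.0347), PSMB9 (-0.94, 0.037) and PSMG1 (-0.22, 0.0399) in the blocked edgeR fit. On the group alone, the adjusted p of these last 5 genes was 0.305 to 0.737.

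Other fits that allow for the label set gave other counts. With the set as a covariate, 17 of 49 were called, against 35.8% of all genes; 9 were higher (17.5% of all genes) and 8 lower (18.4%). In label set 2 alone, 24 were called, against 42.2%, with 11 higher (20.5%) and 13 lower (21.7%). With the set 2 libraries summed, 2 were called, against 16.4%, of which 0 were higher (7.73%) and 2 lower (8.62%), PSMB2 and PSME3. Fits that count set 2 libraries singly take their spread largely from replicates 2 and 3.

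**Figure D1:**
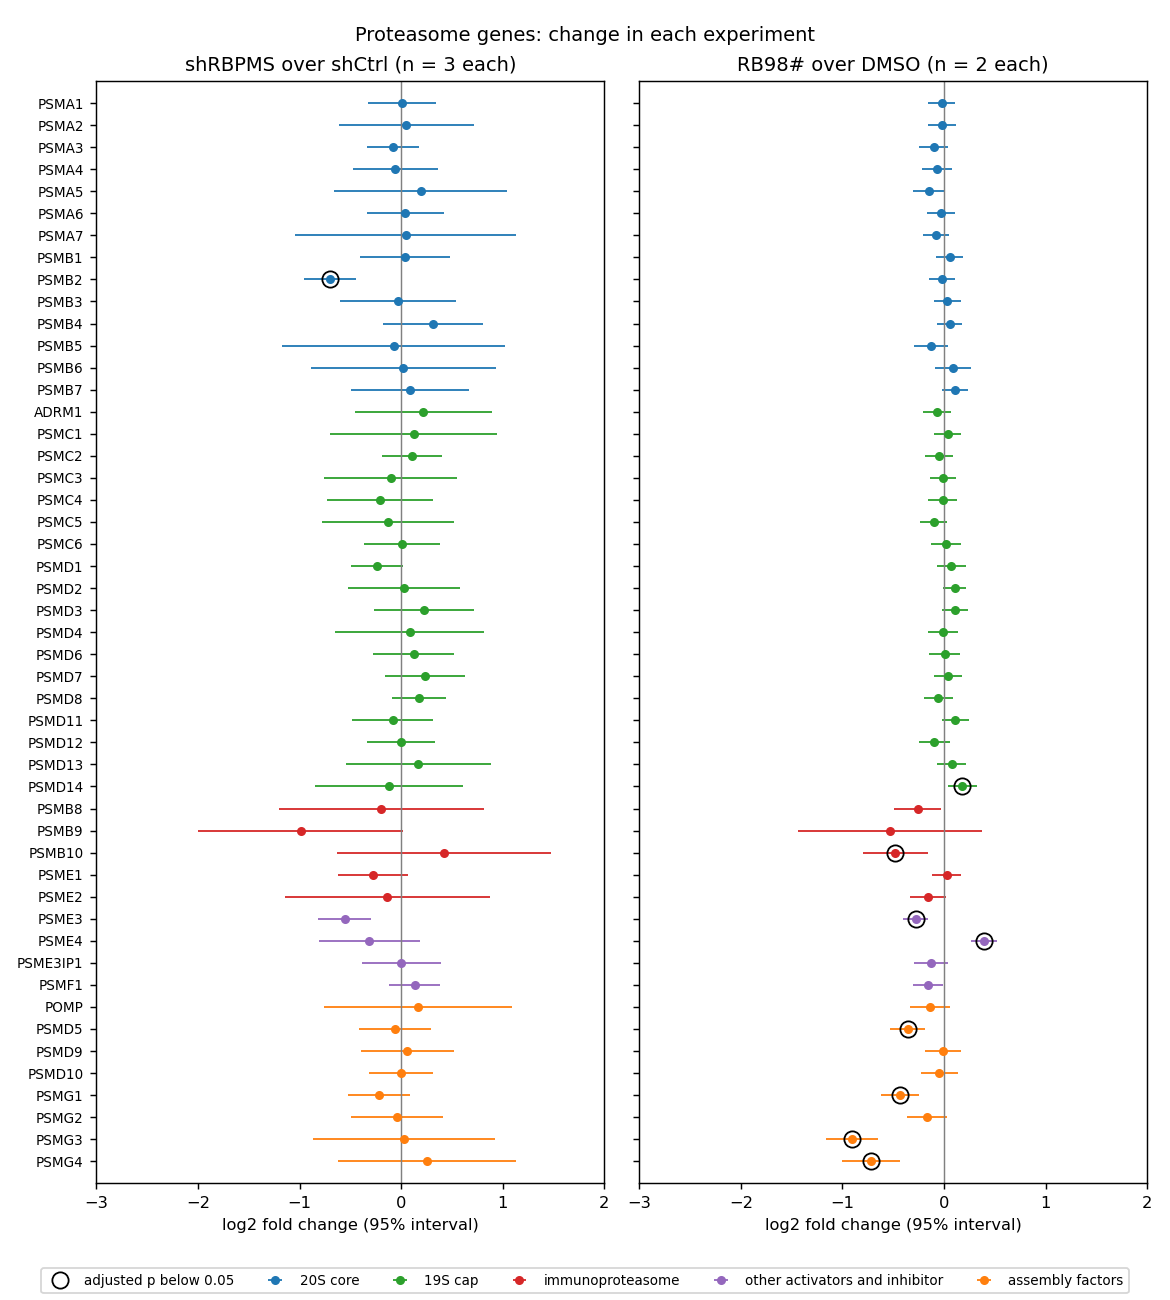
Each dot is the log2 fold change of 1 proteasome gene from edgeR on the group alone, shRBPMS over shCtrl on the left and RB98# over DMSO on the right, with its 95% interval as a line, the class as colour and a ring where the adjusted p is below 0.05. PSMB2 carries the only ring on the left, at -0.70; on the right 8 genes carry one, of which PSMG3, PSMG4, PSMG1 and PSMD5 are assembly factors below 0.

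The plot of fold changes shows wide intervals in the knockdown. The median SE over the 49 genes was 0.21 on the log2 scale there. The cutting subunits illustrate it. PSMB5 had 60.3, 146 and 142 CPM in shRBPMS and 58.3, 157 and 151 CPM in shCtrl. PSMB6 had 32.0, 64.2 and 62.8 CPM in shRBPMS and 28.7, 62.8 and 65.0 CPM in shCtrl. PSMB7 had 117, 179.7 and 176 CPM in shRBPMS and 107, 172 and 167 CPM in shCtrl. In all 3 genes replicate 1 stood lowest in both groups, and the groups overlapped. The log2 fold changes were -0.07 (95% interval -1.17 to 1.03) for PSMB5, 0.02 (-0.89 to 0.94) for PSMB6 and 0.08 (-0.49 to 0.66) for PSMB7, with adjusted p of 0.971, 0.992 and 0.929 in edgeR.

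None of the 18 cap genes was called in the knockdown by edgeR on the group alone, DESeq2 or limma-voom, and 0 had an unadjusted p below 0.05. Of all 16215 genes tested, edgeR called 1.97%, and 2733 had an unadjusted p below 0.05. The 0 calls among the 18 are thus near the background. Log2 fold changes of the cap genes ran from -0.24 (PSMD1) to 0.23 (PSMD7). PSMD1, a large scaffold of the cap, had 95.1, 102 and 91.9 CPM in shRBPMS, against 113, 114 and 114 CPM in shCtrl, without overlap. PSMC4, an ATPase of the ring, had 87.0, 124 and 128 CPM in shRBPMS and 99.1, 145 and 148 CPM in shCtrl.

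Of the 5 immunoproteasome genes, 0 were called by edgeR on the group alone (0 at an unadjusted p below 0.05), 0 by DESeq2 and 0 by limma-voom. Over all genes tested, edgeR called 1.97%, and 2733 of 16215 had an unadjusted p below 0.05. The 0 calls among these 5 genes are thus near the background. PSMB8 had 10.4, 24.4 and 23.0 CPM in shRBPMS and 11.9, 27.9 and 26.4 CPM in shCtrl, a log2 fold change of -0.19 (interval -1.20 to 0.81, adjusted p = 0.896, edgeR). PSMB10 had 5.59, 9.84 and 9.98 CPM in shRBPMS and 2.72, 7.82 and 8.39 CPM in shCtrl. Each PSMB10 value was higher in shRBPMS than in the same-numbered shCtrl library, but the log2 ratio was 1.04 in label set 1 and 0.29 in set 2, and the adjusted p was 0.738 in edgeR (log2 fold change 0.42).

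PSMB9 was near the lower end of detection, at 0.652, 0.984 and 1.04 CPM in shRBPMS and 0.936, 1.72 and 2.63 CPM in shCtrl. The groups overlapped by shCtrl replicate 1. The log2 fold change was -0.99 ± 0.42 (SE, adjusted p = 0.305, edgeR), with a ratio of -0.52 in label set 1 and -1.11 in set 2. PSME1 had 76.2, 94.7 and 95.3 CPM in shRBPMS and 95.2, 115 and 113 CPM in shCtrl. PSME2 had 34.0, 72.8 and 71.2 CPM in shRBPMS and 32.6, 79.8 and 83.4 CPM in shCtrl. The log2 fold changes were -0.28 for PSME1 (adjusted p = 0.409, edgeR) and -0.14 for PSME2 (0.936).

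All 8 assembly factors overlapped between shRBPMS and shCtrl, and 0 were called by edgeR on the group alone (0 at an unadjusted p below 0.05), DESeq2 or limma-voom. Of all genes tested, 25.9% did not overlap, edgeR called 1.97%, and 2733 of 16215 had an unadjusted p below 0.05. The 0 calls among these 8 genes are thus near the background. Log2 fold changes of the assembly factors ran from -0.22 (PSMG1) to 0.25 (PSMG4). PSMG1 had 51.2, 61.5 and 55.8 CPM in shRBPMS and 60.1, 69.2 and 66.6 CPM in shCtrl.

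With RB98#, none of the 14 core genes passed the test, while 4 of the 8 assembly factors fell: PSMG3, PSMG4 and PSMG1, chaperones that build the alpha ring, and PSMD5, a chaperone of the ATPase ring. The class of other activators split, with PSME4 higher and PSME3 lower. One cap gene, PSMD14, was higher and 1 immunoproteasome gene, PSMB10, was lower. In all, edgeR called 8 of the 49 genes (16.3%), against 37.8% of the 12324 genes tested, which is a share below that background. Of these, 2 were higher, against 20.5% of all genes, and 6 were lower, against 17.3%.

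The core gave 0 calls among 14 genes by edgeR, DESeq2 and limma-voom, with 1 gene, PSMA5, at an unadjusted p below 0.05 in edgeR. Core log2 fold changes ran from -0.15 (PSMA5) to 0.11 (PSMB7), with a median of -0.02, against a median of 0.00 over all genes. The cap had a median of 0.01, the immunoproteasome -0.26 and the assembly factors -0.26.

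PSMG3 (chr7:1567330-1571005, minus strand) had 12.6 and 13.0 CPM with RB98#, against 22.8 and 25.0 CPM with DMSO. The means were 12.8 ± 0.257 CPM with RB98# and 23.9 ± 1.58 CPM with DMSO (SD, n = 2 each). Its log2 fold change was -0.90 ± 0.12 (SE, n = 2 each), with an adjusted p of 3.44e-06 in edgeR. PSMG4, its partner in the chaperone pair, had 10.5 and 10.8 CPM with RB98#, against 18.1 and 16.9 CPM with DMSO. PSMG4 changed by -0.72 ± 0.14 on the log2 scale, with an adjusted p of 0.000203. PSMG3 and PSMG4 were each lower in both RB98# libraries than in either DMSO library, as were 34% of all genes.

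PSMG1 had 41.8 and 36.6 CPM with RB98# and 52.9 and 52.8 CPM with DMSO, and its log2 fold change was -0.43 ± 0.09 (adjusted p = 0.000586, edgeR). PSMG2, the partner of PSMG1, had 31.9 and 34.2 CPM with RB98# and 37.3 and 36.9 CPM with DMSO. Both RB98# libraries lay below both DMSO libraries for PSMG2 too, but its log2 fold change of -0.17 (95% interval -0.36 to 0.03) did not pass (adjusted p = 0.174, edgeR). PSMD5 had 50.0 and 46.2 CPM with RB98# and 61.1 and 62.3 CPM with DMSO, a log2 fold change of -0.36 ± 0.08 (adjusted p = 0.00154, edgeR).

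The other assembly factors were POMP, PSMD9 and PSMD10. POMP, which builds the beta rings, had 40.5 and 41.1 CPM with RB98# and 41.2 and 48.4 CPM with DMSO. PSMD9 had 50.1 and 53.6 CPM with RB98# and 53.0 and 51.5 CPM with DMSO, and PSMD10 46.7 and 44.7 CPM with RB98# and 45.8 and 48.6 CPM with DMSO. These genes had log2 fold changes of -0.14, -0.01 and -0.05, and their adjusted p was 0.274 to 0.932 in edgeR.

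PSME4 (chr2:53864067-53970840, minus strand) had 180.3 and 177 CPM with RB98#, against 138 and 134 CPM with DMSO. PSME3 had 183 and 189 CPM with RB98#, against 227 and 223 CPM with DMSO. These activators moved in opposite directions, each without overlap between the groups. The log2 fold change was 0.40 ± 0.06 for PSME4 (adjusted p = 2.08e-05, edgeR) and -0.28 ± 0.06 for PSME3 (0.000689). The log2 ratio of PSME4 to PSME3 CPM was -0.02 and -0.09 with RB98#, against -0.72 and -0.73 with DMSO. This ratio restates the opposite calls and adds no support to them. In the knockdown the ratio was 0.08, -0.25 and -0.33 in shRBPMS and -0.04, -0.66 and -0.62 in shCtrl, with overlap. PSMF1 had 89.7 and 91.5 CPM with RB98# and 103 and 98.9 CPM with DMSO, a log2 fold change of -0.16 that did not pass (adjusted p = 0.0777, edgeR).

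**Figure D2:**
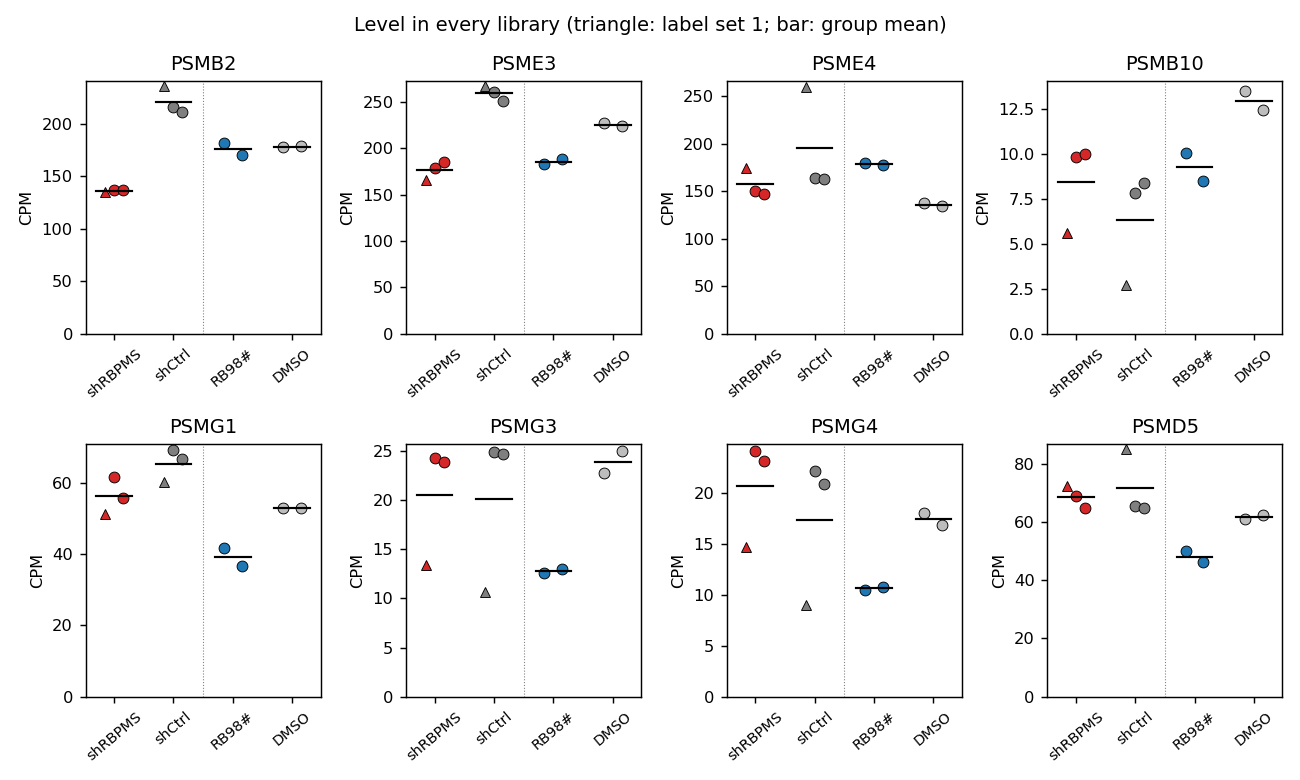
CPM of 8 proteasome genes in each library (points), with the group mean as a bar; from left to right the groups are shRBPMS and shCtrl, then RB98# and DMSO, and triangles mark label set 1. PSMB2 separates the shRBPMS libraries (135 to 137 CPM) from the shCtrl libraries (211 to 236 CPM), and PSMG3 separates RB98# (12.6 and 13.0 CPM) from DMSO (22.8 and 25.0 CPM).

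The per-library plot also shows that the knockdown triangles stand apart from the circles in PSMG3, PSMG4 and PSMB10, in both groups. PSMB10 had 10.0 and 8.51 CPM with RB98#, against 13.5 and 12.4 CPM with DMSO. It changed by -0.48 ± 0.15 on the log2 scale (adjusted p = 0.016, edgeR), but not past the threshold in DESeq2 (0.0914), without RB98# replicate 2 (0.087) or without DMSO replicate 1 (0.14). Of its exon bases in GENCODE 29, 34.8% are shared with another gene on the same strand, so its counts may depend on how shared reads were assigned.

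PSMD14 (chr2:161308038-161411717, plus strand), the enzyme of the cap that cuts ubiquitin off substrates, had 101 and 103 CPM with RB98#, against 89.4 and 90.7 CPM with DMSO. Its log2 fold change was 0.18 ± 0.07 with an adjusted p of 0.0432 in edgeR and 0.125 in DESeq2. Without DMSO replicate 1 or 2 the adjusted p was 0.313 or 0.263. The other 17 cap genes were not called and ran from -0.10 to 0.11 on the log2 scale. PSMC5, an ATPase, and PSMD12, a lid subunit, were lowest, and PSMD11 and PSMD3 highest.

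The cutting subunits did not pass with RB98#. PSMB5 had 75.2 and 91.2 CPM with RB98# and 89.3 and 92.0 CPM with DMSO, PSMB6 had 52.0 and 58.5 CPM with RB98# and 50.5 and 53.4 CPM with DMSO, and PSMB7 had 149 and 148 CPM with RB98# and 138 and 137 CPM with DMSO. PSMB7 was higher in both RB98# libraries, and the others overlapped. The log2 fold changes were -0.13 (interval -0.29 to 0.04), 0.09 (-0.09 to 0.27) and 0.11 (-0.02 to 0.24), with edgeR adjusted p of 0.237, 0.464 and 0.176. PSMB2 had 182 and 171 CPM with RB98# and 178 and 179 CPM with DMSO, a log2 fold change of -0.02 (interval -0.15 to 0.11, adjusted p = 0.848, edgeR).

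PSMB8 had 293 and 272 counts with RB98#, against 364 and 374 counts with DMSO, which is 20.2 ± 0.218 CPM with RB98# and 24.2 ± 0.980 CPM with DMSO (SD, n = 2 each). PSMB9 had 1.02 and 0.821 CPM with RB98# and 1.37 and 1.32 CPM with DMSO. Both were lower in both RB98# libraries, but neither passed in edgeR, at log2 fold changes of -0.26 (adjusted p = 0.071) and -0.53 (0.365). PSME2 had 47.7 and 48.0 CPM with RB98# and 53.0 and 53.6 CPM with DMSO (log2 fold change -0.16, adjusted p = 0.154, edgeR). PSME1 had 93.1 and 90.9 CPM with RB98# and 89.6 and 91.3 CPM with DMSO (0.02, adjusted p = 0.815).

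The calls of PSMG1, PSMG3, PSMG4, PSMD5 and PSME4 held in edgeR without any 1 of the 4 libraries (highest adjusted p = 0.0392), where a lone library was taken to vary like the other group. PSME3 lost its call without DMSO replicate 1 (adjusted p = 0.0524). In an edgeR fit of all 10 libraries, which takes its spread from the knockdown libraries too, 0 of the 49 genes were called with RB98#. That fit also called far fewer of all genes, with the count given under processing below. The 0 is therefore not particular to proteasome genes.

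Non-overlap in this experiment was common: 27 of the 49 genes, against 68.3% of all genes. Of these, 11 were higher, against 34.3%, and 16 were lower, against 34%. By class, 4 of 5 immunoproteasome genes and 6 of 8 assembly factors were lower without overlap, and 7 of 18 cap genes were higher. The authors' deposited table had 1 proteasome gene higher past 0.05, PSME4, and 5 lower (PSMG3, PSMG4, PSMG1, PSMD5 and PSME3). Of all 12325 genes in that table, 1693 were higher and 1040 lower.

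Scaling bears on these directions. With library totals in place of TMM factors, the median log2 fold change of all genes with RB98# was -0.10. The share of called genes that were higher was then 34.0%, against 54.3% with TMM factors. Proteasome calls were then 1 higher and 18 lower (19 of 49), where 4966 of all 12324 genes were called, so most calls were lower in both. PSME4 was 0.29 higher (adjusted p = 0.000706, edgeR) on that scaling.

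The immunoproteasome subunits were also set against the subunits they replace. The log2 ratio of PSMB9 to PSMB6 CPM was -5.61, -6.03 and -5.92 in shRBPMS, against -4.94, -5.19 and -4.63 in shCtrl. That of PSMB10 to PSMB7 was -3.89 and -4.12 with RB98#, against -3.35 and -3.46 with DMSO. Neither pair of groups overlapped. For PSMB9 to PSMB6 with RB98# the values were -5.67 and -6.15, against -5.21 and -5.34 with DMSO, and for PSMB8 to PSMB5 they were -1.91 and -2.17, against -1.85 and -1.97 with DMSO; of these the PSMB9 groups did not overlap and the PSMB8 groups did. PSMB8 to PSMB5 in the knockdown was -2.54, -2.58 and -2.62 in shRBPMS and -2.30, -2.49 and -2.52 in shCtrl, without overlap. PSMB10 to PSMB7 ran the other way there, at -4.39, -4.19 and -4.14 in shRBPMS and -5.30, -4.46 and -4.31 in shCtrl, with overlap. No test was run on these ratios, and those with PSMB9 rest on about 1 CPM. For the levels of single genes, the groups did not overlap in 25.9% of all genes in the knockdown and 68.3% with RB98#.

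**Figure D3:**
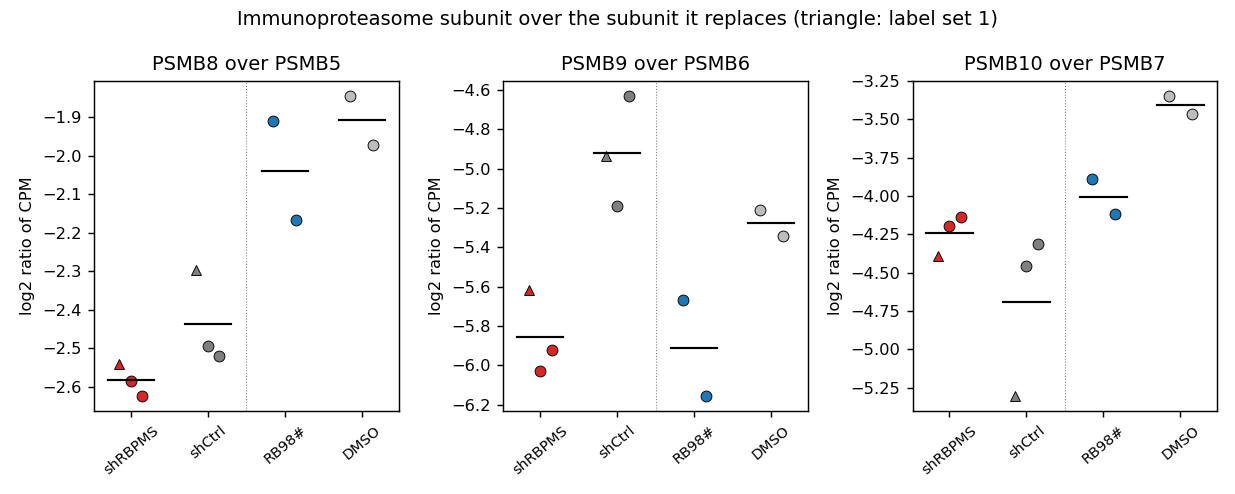
Log2 ratio of the CPM of an immunoproteasome subunit to that of the subunit it can replace, per library (points) with the group mean as a bar; groups run shRBPMS, shCtrl, RB98#, DMSO from left to right and triangles mark label set 1. PSMB9 over PSMB6 lies at -6.03 to -5.61 in shRBPMS, below the shCtrl libraries at -5.19 to -4.63.

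The ratio plot has axes that do not start at 0, since log2 ratios have no true zero. The effect on PSMB2 differed between the experiments. The RB98# effect minus the shRBPMS effect was 0.66 ± 0.13 on the log2 scale (adjusted p = 0.0228, edgeR fit of all 10 libraries). It was the single difference called among the 49 genes (2.04%), against 8.15% of the 12126 genes tested (4.79% higher and 3.36% lower). With the replicate block, 11 of the 49 were called, against 37.1%. These 11 were PSMB2, PSMG3, PSMG4, PSME4, PSMB10, PSMA5, PSMF1, PSMB4, PSME1, PSMD1 and ADRM1. For PSMG3 the difference was -0.95 and for PSMG4 -0.99, with adjusted p of 0.324 and 0.292 without the block and 0.00168 and 0.00376 with it.

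Most proteasome genes stood lower in label set 1. Set 1 over set 2, the median log2 ratio of the 49 genes was -0.45 within shRBPMS and -0.46 within shCtrl, against 0.02 and -0.02 over all genes tested. In shRBPMS 44 of 49 genes were lower in set 1, against 48.6% of all genes, and in shCtrl 41 of 49, against 51%. The 5 immunoproteasome genes were all lower, with medians of -0.82 in shRBPMS and -1.19 in shCtrl. The other activators and the inhibitor had medians of 0.08 in shRBPMS and 0.17 in shCtrl. With 1 set 1 library per group, no test was made. The mitochondrial share moved with the set, and its part was not tested.

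**Figure D4:**
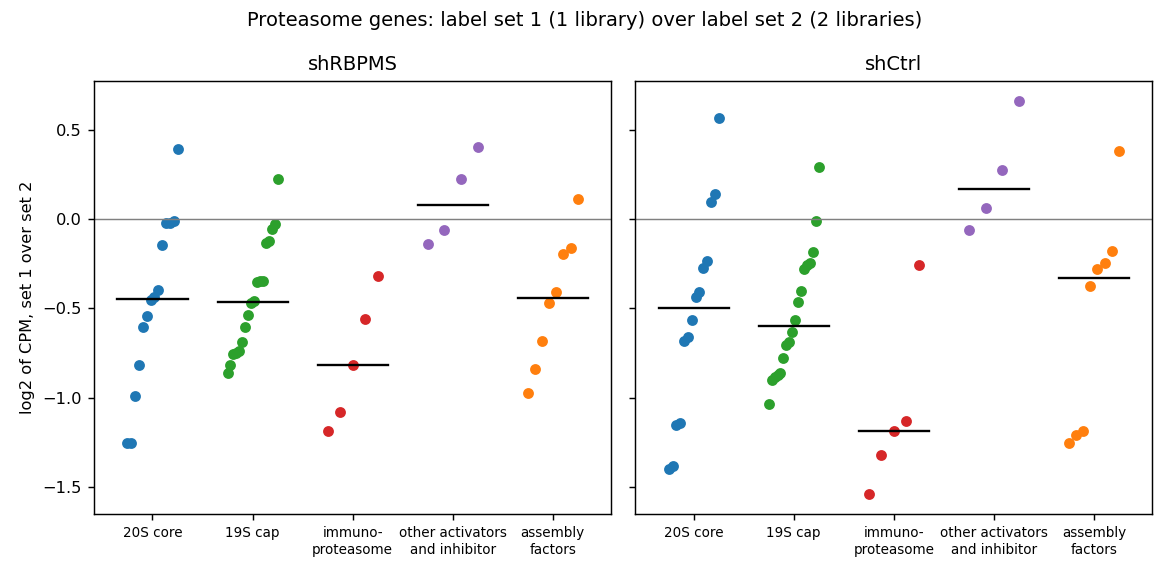
Each dot is 1 proteasome gene, plotted as the log2 ratio of its CPM in label set 1 (1 library) to label set 2 (mean of 2 libraries), within shRBPMS on the left and within shCtrl on the right, with class medians as bars. The 20S core, 19S cap, immunoproteasome and assembly medians lie below 0 in both groups, and the immunoproteasome lies lowest, at -0.82 in shRBPMS and -1.19 in shCtrl.

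The plot by label set shows the same order of class medians in both groups, which share no library. The level of some core genes also depended on the table. PSMA2 averaged 2.04 CPM in shCtrl and 109 CPM with DMSO, a log2 ratio of -5.74. PSMA6 was at 9.46 CPM in shCtrl and 136 CPM with DMSO (-3.84), PSMA1 at 29.7 CPM in shCtrl and 133 CPM with DMSO (-2.17), and PSMD9 at 11.9 CPM in shCtrl and 52.2 CPM with DMSO (-2.14). These were the 4 proteasome genes below -2, as were 2.68% of the 12115 genes compared, whose median was 0.08. In GENCODE 29 they share 14.1% to 24.7% of their exon bases with another gene on the same strand. PSMB10, at -1.04, shares 34.8%, while PSMC1, at -1.10, and PSMD7, at -1.06, share none on the same strand. With either strand counted, PSMC1 shares 75.8%, PSMD7 30.7% and PSMA2 34.6%. PSMB8, at -0.13, then shares 20.6%, ADRM1, at -0.09, shares 17.2%, and PSMG2, at 0.48, shares 16.7%. The annotation each table was counted on is not given in the sources used here, and the cause was not tested. 

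**Figure D5:**
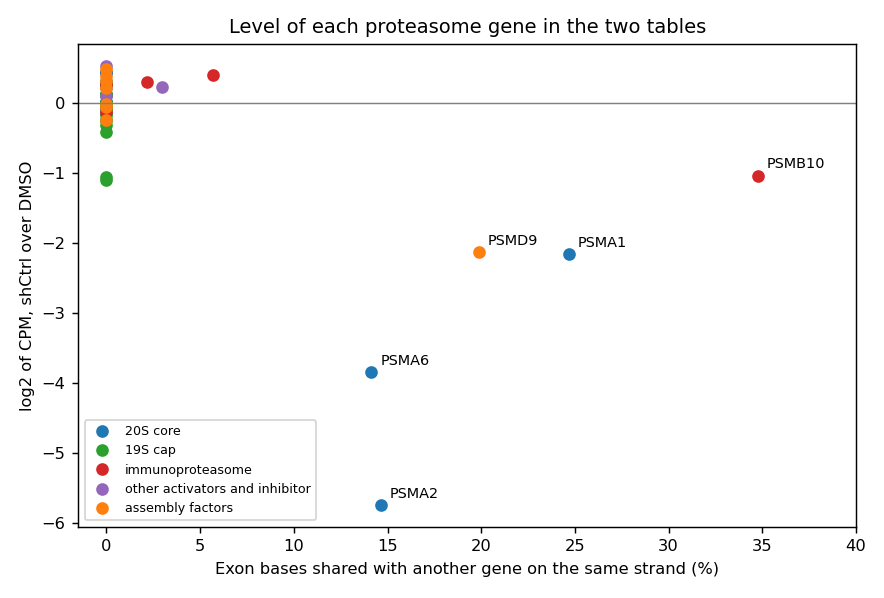
For each proteasome gene, the log2 ratio of its mean CPM in shCtrl to that with DMSO (vertical axis) against the percent of its exon bases shared with another gene on the same strand in GENCODE 29 (horizontal axis); colours are classes. PSMA2, PSMA6, PSMA1 and PSMD9 lie below -2 and share 14.1% to 24.7%, and PSMB10 shares 34.8% and lies at -1.04. Overlap on the opposite strand is not plotted.

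The plot across tables compares experiments that were scaled apart, so it describes the tables and not a treatment. Other genes of the pathway were read from lists of controllers, bound factors, ubiquitin genes, the VCP unfoldase and antigen processing. In the knockdown 0 genes of the 5 lists were called by edgeR on the group alone and by limma-voom. At an unadjusted p below 0.05 there were 5 of 14 transcription controllers, 2 of 19 bound factors, 1 of 6 ubiquitin and E1 genes, 0 of 10 VCP genes and 2 of 8 antigen processing genes, and DESeq2 called 3, 0, 0, 0 and 1. With the replicate block, 1 controller was higher and 3 lower, 2 bound factors were higher and 6 lower, 1 ubiquitin gene was higher and 1 lower, 0 VCP genes moved, and 1 antigen processing gene was higher and 2 lower. Over all 16215 genes, 2733 had an unadjusted p below 0.05, DESeq2 called 1339, and the blocked fit called 13.3% higher and 14.8% lower.

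With RB98#, 4 of 14 transcription controllers rose and 4 fell, with a median log2 fold change of 0.01, against 20.5% higher and 17.3% lower of all genes. FOXO3, which is known to raise proteasome genes in mouse muscle, had 254 and 247 CPM with RB98# and 137 and 132 CPM with DMSO, a log2 fold change of 0.90 (adjusted p = 2.35e-11, edgeR). FOXO1 had 11.3 and 11.2 CPM with RB98# and 15.3 and 16.1 CPM with DMSO (-0.48, adjusted p = 0.00814). NFE2L2, the antioxidant factor that binds the element searched above, had 96.7 and 85.6 CPM with RB98# and 66.7 and 68.6 CPM with DMSO (0.43, adjusted p = 0.000111). NFE2L1 itself was lower, at 205 and 228 CPM with RB98# and 249.7 and 253 CPM with DMSO (-0.21, adjusted p = 0.00906). NFE2L1 was picked for mention with its values in view.

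Of 19 bound factors and shuttles, 4 rose and 2 fell with RB98# (median -0.01), where 20.5% of all genes were higher and 17.3% lower. PAAF1, which binds the ATPases, had 15.1 and 16.6 CPM with RB98# and 19.5 and 22.8 CPM with DMSO (log2 fold change -0.42, adjusted p = 0.011, edgeR). UCHL5, a deubiquitinase on the cap, had 85.4 and 73.2 CPM with RB98# and 101 and 108 CPM with DMSO (-0.40, adjusted p = 0.000254). AKIRIN2, needed to import proteasomes into the nucleus, had 32.0 and 30.3 CPM with RB98# and 22.2 and 25.7 CPM with DMSO (0.38, adjusted p = 0.00681).

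Of 10 genes of the VCP unfoldase, which pulls ubiquitinated proteins out of complexes before degradation, 5 rose and 1 fell (median 0.25), against 20.5% higher and 17.3% lower of all genes. The 1 that fell was VCP itself, at 666 and 730.1 CPM with RB98# and 782 and 762 CPM with DMSO (log2 fold change -0.15, adjusted p = 0.0413, edgeR), named after its values were seen. The cofactor FAF1 had 75.4 and 81.8 CPM with RB98# and 57.6 and 54.5 CPM with DMSO (0.49, adjusted p = 3.63e-05, edgeR). FAF2 had 73.7 and 72.6 CPM with RB98# and 53.8 and 50.9 CPM with DMSO (0.48, adjusted p = 3.91e-05). NPLOC4 had 308 and 315 CPM with RB98# and 238 and 229 CPM with DMSO (0.42, adjusted p = 3.56e-06). In each of these 3 cofactors, both RB98# libraries were above both DMSO libraries, as in 34.3% of all genes. The 3 were picked for the largest changes past the threshold, so their separation adds no support.

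Among the ubiquitin and E1 genes, UBB, a ubiquitin precursor gene, fell: it had 415 and 489 CPM with RB98# and 536 and 517 CPM with DMSO (log2 fold change -0.22, adjusted p = 0.00848, edgeR). Of 8 antigen processing genes 3 rose and 0 fell (median 0.11), against 20.5% and 17.3% of all genes, and DESeq2 called 1 of the 8. TAP1, a peptide transporter, had 10.4 and 12.8 CPM with RB98# and 7.78 and 8.66 CPM with DMSO (0.49, adjusted p = 0.0216, edgeR). NLRC5, an activator of class I genes, had 34.5 and 36.0 CPM with RB98# and 25.2 and 31.1 CPM with DMSO (0.32, adjusted p = 0.0185). B2M had 623 and 606 CPM with RB98# and 539.6 and 549 CPM with DMSO (0.18, adjusted p = 0.0114). Of the 5 immunoproteasome genes none was called higher in the same libraries.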

How the data were processed

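RNA-seq counts of 10 of the 14 samples were used; the RIP and m6A samples were not analysed here. Per the submitters' processing notes, the tools included DESeq2 1.32.0, StringTie, featureCounts 2.0.1, HISAT2 2.2.1 and fastp 0.22.0, and the build was hg38/GRCh38, with no role stated. Per the file headers, each experiment has a table of raw counts per gene, deposited without normalization. The authors' deposited log2 fold changes and p-values were quoted where named. The knockdown fold changes rest on adjusted per-library values whose adjustment is not described, and those and similar columns (10 in all) were left aside. The knockdown table held 16405 genes, the treatment file 12437 lines, of which 12325 genes were left once repeated identifiers were dropped, and 12126 were shared.

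Counts were tested with edgeR 4.0.16 (R 4.3.3) by quasi-likelihood F tests, two-sided, with TMM factors, filterByExpr (minimum count 10, total 15), group as the design and Benjamini-Hochberg adjustment at 0.05 over all genes. Fits were made within an experiment, except that the difference of effects took all 10 libraries. SE is the log2 fold change over the root of F, and 95% intervals use the t distribution of the fit. Set ratios used an offset of 0.1 CPM. The code was tested on simulated data. Strand of counting is not given in the sources used here, so reads from opposite-strand partners cannot be told apart. Genes with such partners include PSMC1, PSMD7, PSMB8, PSMC5, ADRM1, PSMG2, PSMG4, PSMD1, PSME3, PSMG3 and PSMD14. In these the shared exon bases run from 75.8% (PSMC1) to 2.07% (PSMD14). In bulk RNA, fewer cells of a kind and less RNA per cell cannot be told apart. Library totals give the depth, and SDs cover the spread between libraries only.

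Same-numbered knockdown libraries deviated together (correlation of deviations from group means 0.852, 0.772 and 0.800, 10606 genes). Label set 1 stood apart from label set 2 in both groups, which these correlations cannot tell from a pairing by replicate number. The replicate block therefore rests on the numbering in the labels. Blocked values are printed where they change the call of a proteasome gene within an experiment. For the pathway lists in the knockdown only blocked counts are given, and most blocked differences of effects are given by name alone. Alternatives were other scalings (size factors of the DESeq2 type, library totals), no filter, DESeq2 1.42.0, limma-voom (limma 3.58.1), the replicate block, each library left out, the label set as covariate, set 2 summed or alone, and all libraries in 1 fit.

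The members and lists were chosen with earlier results of these data known. Full statistics are given for the cutting subunits, the immunoproteasome genes and, per comparison, class and list, up to 3 genes past 0.05 with the largest change; other genes were named after their values were seen. One gene of the ubiquitin and E1 list is not reported here.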

Additional observations from a re-analysis of the deposited data

Results flagged for a closer look

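PSMB2 responded differently in the experiments: the RB98# effect minus the shRBPMS effect was 0.66 on the log2 scale (adjusted p = 0.0228, edgeR contrast over all 10 libraries). With RB98# the log2 fold change was -0.02, and with shRBPMS it was -0.70. Over all leave-one-out fits the adjusted p of the difference was 0.00995 to 0.121, and the call was lost without shRBPMS replicate 2 or 3 and without any 1 of the RB98# or DMSO libraries, while the value stayed between 0.61 and 0.71. With the replicate block the adjusted p was 0.00164.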

How the results depend on the processing

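In the knockdown the count of genes past the threshold was 320 on the group alone. It was 1339 with DESeq2, 4549 with the replicate block, 5810 with the label set as covariate, 2681 with set 2 summed, 6830 in set 2 alone and 1402 with all 10 libraries in 1 fit; of proteasome genes these called 2, 8, 17, 2, 24 and 2. Without 1 library at a time, genes called were 0 to 322 and proteasome genes 0 to 1. Over all genes, the 0 came without shRBPMS replicate 2 or 3 or shCtrl replicate 3 (1866, 2002 and 2010 genes at an unadjusted p below 0.05 in edgeR). The 1 proteasome call, PSMB2, was kept only without shCtrl replicate 1. Class medians then ran from -0.11 to 0.15 (core), -0.12 to 0.16 (cap) and -0.47 to 0.10 (immunoproteasome). The knockdown block changed no other call among the 49 genes than those printed with the results. With RB98#, library totals called 19 proteasome genes and moved class medians to -0.12 (core), -0.0897 (cap) and -0.36 (immunoproteasome); all 10 libraries in 1 fit called 352 genes and 0 proteasome genes (2136 genes at an unadjusted p below 0.05). Without 1 library, genes called were 2731 to 5028 (2843 and 2731 without DMSO replicate 1 and 2) and proteasome genes 5 to 13 (5 without DMSO replicate 1, 13 without RB98# replicate 1), with class medians of -0.0233 to 0.00667, 0.00129 to 0.0424 and -0.30 to -0.22. The RB98# replicate numbers do not pair (correlation -0.0585, 10443 genes); the block there called 4430 genes and 7 proteasome genes, without PSMD14 (adjusted p = 0.0838), and among the pathway lists B2M (0.0597) and VCP (0.122) lost their calls and no other gene changed its call. For the difference of effects, DESeq2 called 1796 genes and the replicate block 4497, with 11 proteasome genes; without 1 library, 92 to 1541 genes and 0 to 2 proteasome genes. Signs turned in 32 of the 49 genes in the knockdown when some 1 library was left out (log2 fold changes of up to 0.25 in size; PSMG4, at 0.25, reached -0.07) and in 16 with RB98# (up to 0.09 in size). Library totals turned 2 in the knockdown and 11 with RB98# (up to 0.09 in size). No gene past the threshold turned. PSMB6 was -0.0085 in set 2 alone, and with library totals under RB98# PSMB6 was -0.0147 and PSME1 -0.0766. Leaving out 1 library gave -0.41 to 0.24 for PSMB5, -0.28 to 0.28 for PSMB6, -0.11 to 0.26 for PSMB7, -0.50 to 0.10 for PSMB8 and -0.47 to 0.14 for PSME2 in the knockdown, and -0.000225 to 0.16 for PSMB6 and -0.00477 to 0.0403 for PSME1 with RB98#. The cause of these shifts was not tested. PSMB9, at about 1 CPM, is limited by depth, and the treatment experiment by 2 libraries per group.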
